A study of Mus musculus with 15 samples.

Results

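The mRNA levels of 10 regulators of mitochondrial biogenesis and mitochondrial DNA (mtDNA) expression were followed in quadriceps muscle of 15 mice. They were chosen by name from the 39179 genes counted in every mouse, and not by a rule on their values. Earlier results of these data were known when they were chosen. The members are the coactivators Ppargc1a and Ppargc1b, the DNA-binding factors Esrra, Nrf1 and Gabpa, and the nuclear-encoded factors of mtDNA transcription and replication Tfam, Tfb1m, Tfb2m, Polrmt and Twnk. RNA-seq covered 4 wild-type and 4 V338Y mice at 3 mo of age, and 3 wild-type and 4 V338Y mice at 19 mo, all of the C57BL/6 background. V338Y mice are homozygous for an amino acid exchange in Mrps5, a protein of the small mitochondrial ribosomal subunit that is known to lower the accuracy of mitochondrial translation, and the exchange is present in all their cells. The comparisons ask how the regulators differ with age in each genotype and with genotype at each age.

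Mitochondria carry their own small genome, but nearly all their proteins, including those that copy and transcribe this genome, are encoded in the nucleus. PGC-1 coactivators do not bind DNA themselves. They are recruited by factors such as ERRα (encoded by Esrra), NRF1 and GABP to genes of respiration and of mtDNA maintenance. In the mitochondrion the polymerase POLRMT starts transcription together with TFAM, which also packs mtDNA, and TFB2M, which helps to open the promoter. TFB1M methylates the ribosomal RNA of the small mitochondrial subunit, and Twinkle (Twnk) is the helicase of mtDNA replication. In muscle the pathway is known for its response to endurance exercise and for its high activity in oxidative fibers.

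The stretches before the start of 3 members are shown because these members passed the test for age in V338Y mice described further on. Of the 3, only Esrra also passed it in wild-type mice, and Polrmt passed in 5 of 16 alternative fits in V338Y mice. A further reason is that the stretches differ in the sites they hold for factors of the same pathway. Sequences are from RefSeq on GRCm38.p6, in the direction of transcription, ending at the RefSeq start or shortly before it where an exon of the gene is annotated further upstream, and they hold no annotated exon. Esrra is on the minus strand of chr19 at 6910977 to 6921813, and its stretch is chr19:6921814-6922058. Polrmt is on the minus strand of chr10 at 79736123 to 79746581, with the stretch chr10:79746582-79746831. Ppargc1a is on the minus strand of chr5 at 51454250 to 51567726, with the stretch chr5:51567727-51567975. Capitals mark a match, on either strand, to one of the motifs named in the next paragraph.
Esrra: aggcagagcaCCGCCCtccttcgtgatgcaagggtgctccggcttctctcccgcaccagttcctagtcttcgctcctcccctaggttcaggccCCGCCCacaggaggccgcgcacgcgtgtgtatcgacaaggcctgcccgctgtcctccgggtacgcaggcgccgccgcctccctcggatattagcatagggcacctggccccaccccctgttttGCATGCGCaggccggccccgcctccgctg
Polrmt: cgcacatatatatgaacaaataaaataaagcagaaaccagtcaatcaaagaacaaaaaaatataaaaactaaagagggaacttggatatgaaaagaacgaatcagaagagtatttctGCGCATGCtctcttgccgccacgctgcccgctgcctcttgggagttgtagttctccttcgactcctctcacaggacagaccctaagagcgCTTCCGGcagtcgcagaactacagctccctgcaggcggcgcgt
Ppargc1a: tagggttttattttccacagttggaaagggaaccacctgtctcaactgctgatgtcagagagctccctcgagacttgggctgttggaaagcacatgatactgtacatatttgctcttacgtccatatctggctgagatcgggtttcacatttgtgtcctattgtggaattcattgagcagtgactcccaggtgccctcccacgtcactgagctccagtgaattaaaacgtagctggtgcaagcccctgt

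Motifs were searched on both strands in the 250 bases before the start, in 11 windows of 9 members. Nrf1 and Twnk have a pair of windows each, and Ppargc1b was not analysed here. The NRF1 core GCATGCGC was found in 2 windows, those of Esrra and Polrmt, against 2.26% of 32851 windows of the genome. The ETS core CCGGAAG, which GABP binds, was found in 4 windows, those of Gabpa, Polrmt, Tfam and a start of Twnk, against 6.91% of all windows. The GC box GGGCGG was found in 6 windows, of Esrra, Nrf1, Tfam, Tfb1m, Tfb2m and Twnk, against 32.7%. The YY1 core ATGGCGG was found in 2 windows, of Gabpa and Nrf1, against 2.21%, and the ERR core AAGGTCA in 1 window, of Twnk, against 4.08%. The cAMP response element TGACGTCA was found in 0 of the 11 windows, against 1.55% of all windows, and the stretch of Ppargc1a held none of the 6 motifs. None of these strings contains another, and a match describes letters only.

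Values are CPM, gene counts divided by library sizes that TMM normalization had adjusted for differences in composition. Between 8250653 and 18968132 counts were assigned to genes per mouse, and single members had 29 (Ppargc1b) to 1152 (Esrra) counts in a mouse. Mrps5 itself was at 23.7 ± 1.83 CPM (SD, n = 4) in 3 mo wild-type and 25.7 ± 1.505 (n = 4) in 3 mo V338Y mice, and at 17.7 ± 1.79 (n = 3) and 17.4 ± 1.64 (n = 4) at 19 mo, which checks the level of the gene but not its sequence. The age groups differed in more than age. All 3 mo mice expressed the Y-linked Ddx3y (163 to 202 CPM) with Xist, the RNA of the inactive X, at most at 0.575 CPM, whereas all 19 mo mice had Xist at 506 to 631 CPM and Ddx3y at most at 0.0827. The methods describe the young mice as female. Age therefore cannot be told apart from sex in these libraries. Of 14 core clock genes, 12 differed with age in the wild type and 13 in the mutant at an adjusted p under 0.05 (edgeR). Dbp, an output factor of the clock, was at 57.4 to 77.7 CPM in 3 mo and 4.37 to 10.0 in 19 mo mice, and no time of sampling is in the labels. The part of sex and of sampling time in the age differences was not tested.

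In addition, the 19 mo wild-type and the 19 mo V338Y mouse numbered 5 stood apart in a gene of oxidative fibers. Myh2, a myosin of oxidative fast fibers, was at 4246 and 4880 CPM in them and at 243 to 878 in the other mice. The slow fiber gene Myh7 was at 320 and 1210 CPM in them, but also at 181 in the 19 mo wild-type mouse numbered 4. In the remaining mice it was at most at 30.2 CPM. Comparisons with 19 mo mice were therefore also made without both of these mice. In the labelled tissue, 8 muscle fiber genes summed to 254820 to 299570 CPM in 3 mo wild-type and 281900 to 312620 in 3 mo V338Y mice. At 19 mo the sums were 225360 to 278210 CPM in wild-type and 163230 to 258290 in V338Y mice.

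On a per-length scale (CPM per kb of annotated exon), Esrra was the highest member in 3 mo wild-type muscle at 15.9 ± 1.95 (SD, n = 4), followed by Tfam at 11.4 ± 0.150 and Gabpa at 8.26 ± 0.869. These 3 did not overlap with their neighbours in the order. Tfb2m at 5.55 ± 0.683 and Twnk at 5.525 ± 0.7099 overlapped, as did Ppargc1a at 4.20 ± 0.396 and Polrmt at 3.74 ± 0.0513. Tfb1m at 1.69 ± 0.131, Nrf1 at 1.54 ± 0.123 and Ppargc1b at 1.07 ± 0.290 were lowest, with ranges that overlapped from each to the next. At 19 mo the order of levels was closer. In wild-type mice Esrra was at 8.73 ± 2.66 (n = 3), Gabpa at 7.73 ± 0.391, Tfam at 7.08 ± 0.715 and Ppargc1a at 5.69 ± 1.96 CPM per kb, each overlapping the next, and Ppargc1b at 2.64 ± 0.630 stood above Tfb1m and Nrf1.

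**Figure D1:**
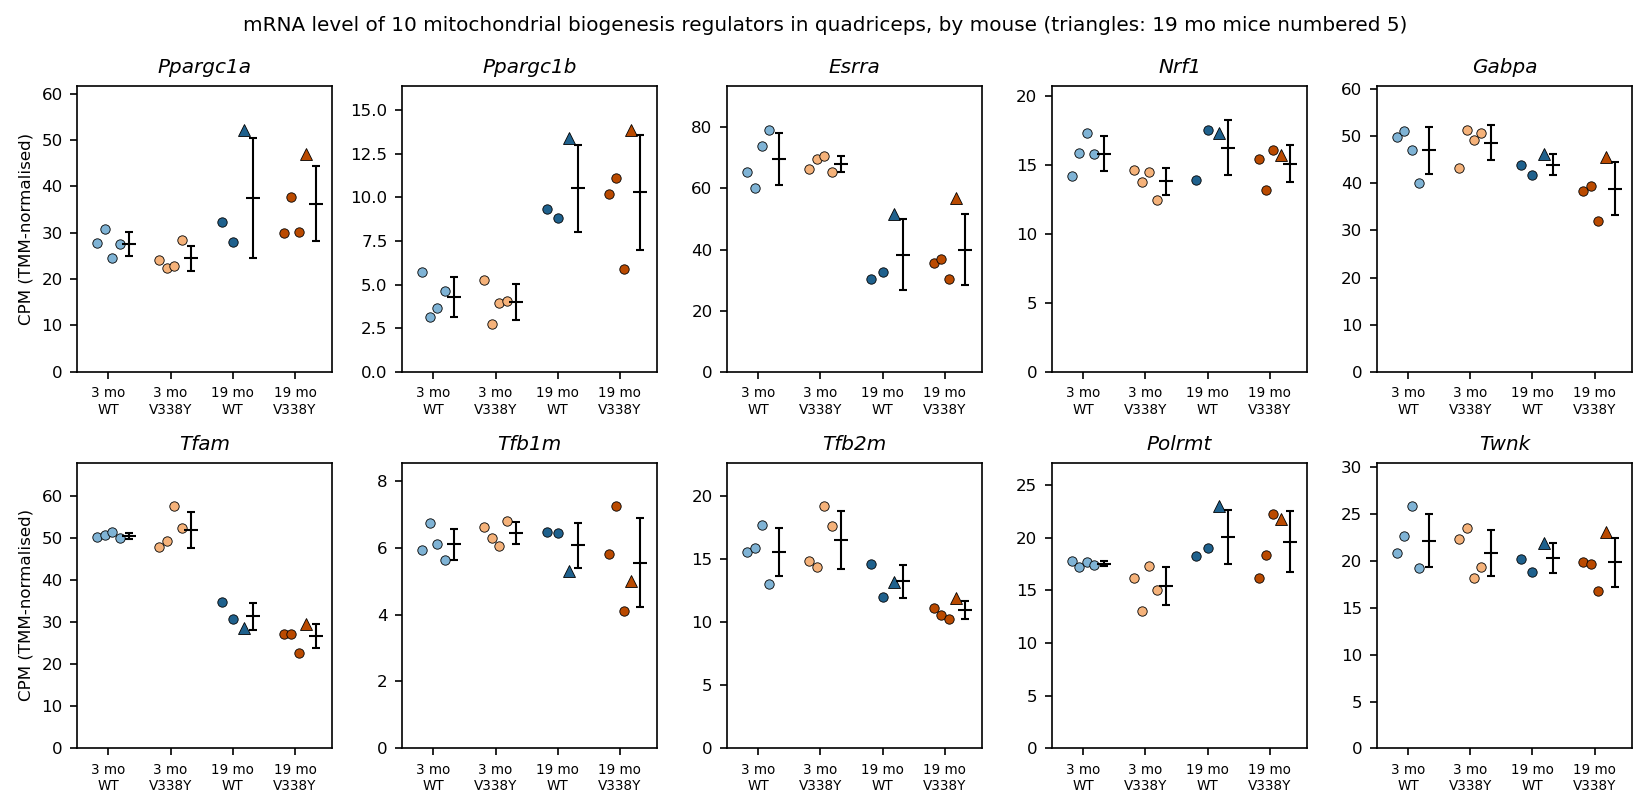
mRNA level (CPM, vertical axes from 0) of each regulator in every mouse, in the 4 groups of age and genotype (WT, wild-type). Points are mice, triangles the 19 mo mice numbered 5, and bars mean ± SD. Esrra and Tfam lay lower and Ppargc1b higher in every 19 mo mouse than in any 3 mo mouse of the same genotype, and the genotypes overlapped at each age except for Tfb2m at 19 mo.

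With age, Ppargc1b was higher and Esrra and Tfam were lower in both genotypes. In wild-type mice 1 of the 10 members, Ppargc1b, was higher and 2, Esrra and Tfam, were lower at 19 mo at an adjusted p under 0.05 (edgeR's quasi-likelihood test, Benjamini-Hochberg over all genes). Of all 13657 genes tested, 18.3% were higher and 17.8% lower by this rule, so both counts lie near the background. In V338Y mice 3 members were higher (Ppargc1a, Ppargc1b and Polrmt) and 4 lower (Esrra, Gabpa, Tfam and Tfb2m), against a background of 24.4% higher and 22.5% lower among 13868 genes. Without the mice numbered 5, the same 3 members were called in the wild type and 6 in the mutant, where the call of Polrmt was lost. Every 19 mo mouse lay below every 3 mo mouse for 2 members in wild-type and 3 in V338Y mice, as for 21.7% and 21.9% of all genes. Every 19 mo mouse lay above for 2 members in each genotype, as for 21.7% of all genes in the wild type and 20.3% in the mutant. The median log2 fold change of the members was -0.050 in the wild type and -0.13 in V338Y mice, beside 0.019 and 0.072 over all genes.

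Ppargc1b encodes PGC-1β, a coactivator of ERRα with a role in the basal mitochondrial content of muscle. Its level was 5.75, 3.12, 3.65 and 4.62 CPM in the 3 mo wild-type mice and 9.33, 8.82 and 13.4 in the 19 mo wild-type mice. In V338Y mice it was 5.29, 2.76, 3.97 and 4.03 at 3 mo, and 10.2, 11.1, 5.92 and 13.9 at 19 mo. All 19 mo mice were above all 3 mo mice, and the V338Y mouse numbered 4 was lowest among the old. The mice numbered 5 were the highest of each old group. The log2 fold change was 1.30 (SE 0.23, edgeR adjusted p = 0.00292) in wild-type and 1.36 (SE 0.26, adjusted p = 0.00267) in V338Y mice. Without the mice numbered 5 it was 1.09 (edgeR adjusted p = 0.00809) and 1.19 (adjusted p = 0.00384).

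Ppargc1a encodes PGC-1α, the coactivator that exercise and cold induce. Its level was 27.7, 30.9, 24.5 and 27.6 CPM in 3 mo wild-type and 32.3, 28.1 and 52.3 in 19 mo wild-type mice. In V338Y mice it was 24.2, 22.5, 22.9 and 28.5 at 3 mo, and 30.1, 37.8, 30.1 and 47.1 at 19 mo. The highest value in each old group belonged to the mouse numbered 5, the wild-type groups overlapped, and the V338Y groups did not. In V338Y mice the log2 fold change was 0.58 (SE 0.15, edgeR adjusted p = 0.0117), and 0.44 (adjusted p = 0.0131) without the mouse numbered 5. In wild-type mice it was 0.44 with an adjusted p of 0.103, and 0.12 (adjusted p = 0.457) without that mouse.

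Esrra encodes the orphan nuclear receptor through which PGC-1 proteins act on genes of oxidative phosphorylation and fatty acid oxidation. Its level was 65.4, 60.0, 73.8 and 79.3 CPM in 3 mo wild-type and 30.5, 32.7 and 51.7 in 19 mo wild-type mice. In V338Y mice it was 66.2, 69.5, 70.7 and 65.5 at 3 mo, and 35.6, 37.02, 30.4 and 56.8 at 19 mo. Each old mouse was below each young mouse, and the mice numbered 5 were the highest of the old. The log2 fold change was -0.86 (SE 0.19, edgeR adjusted p = 0.00734) in wild-type and -0.75 (SE 0.17, adjusted p = 0.00554) in V338Y mice. Without the mice numbered 5 it was -1.15 and -0.96. An exon of Trmt112 on the other strand shares 73 bases with Esrra exons, and whether the counting used strand is not given in the sources used here.

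The other DNA-binding factors had smaller age differences. Nrf1, which encodes the factor NRF1 that binds promoters of many respiratory genes, ranged from 12.4 to 17.6 CPM over all 15 mice. The groups overlapped, with log2 fold changes of 0.038 (95% interval -0.23 to 0.31) in wild-type and 0.14 (-0.096 to 0.37) in V338Y mice. Gabpa, the DNA-binding subunit of GABP, was at 49.7, 51.1, 47.0 and 40.0 CPM in 3 mo and 44.0, 41.7 and 46.2 in 19 mo wild-type mice, with full overlap (edgeR log2 fold change -0.095, adjusted p = 0.498). In V338Y mice it was 43.2, 51.4, 49.1 and 50.7 at 3 mo, and 38.4, 39.4, 31.9 and 45.6 at 19 mo. The old mouse numbered 5 lay above the lowest young mouse. The log2 fold change was -0.31 with an adjusted p of 0.0497, and the call was lost in 9 of 16 alternatives, with adjusted p of 0.0159 to 0.118. Gabpa shares 397 exon bases with Atp5j on the other strand.

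Tfam, the packaging and transcription factor of mtDNA on chr10 at 71225464 to 71238280, had the smallest coefficient of variation among young wild-type mice (1.31%, against 1.37% for Polrmt, the next). They had 50.2, 50.7, 51.5 and 49.97 CPM, and the 19 mo wild-type mice 34.9, 30.8 and 28.6. In V338Y mice Tfam was at 48.0, 49.5, 57.7 and 52.6 CPM at 3 mo, and at 27.3, 27.2, 22.8 and 29.5 at 19 mo. Old and young mice were separated in both genotypes, and here the mice numbered 5 did not stand above the other old mice as a pair: the wild-type one was the lowest and the V338Y one the highest of its group. The log2 fold change was -0.68 (SE 0.091, edgeR adjusted p = 0.000873) in wild-type and -0.95 (SE 0.10, adjusted p = 0.000183) in V338Y mice.

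Tfb2m, the cofactor of POLRMT in promoter opening, on chr1 at 179528055 to 179546267, was at 15.6, 15.9, 17.7 and 13.1 CPM in 3 mo and 14.6, 12.0 and 13.2 in 19 mo wild-type mice. In V338Y mice it was at 14.8, 14.4, 19.2 and 17.6 at 3 mo, and at 11.1, 10.5, 10.2 and 11.9 at 19 mo. The wild-type groups overlapped, and the V338Y groups were separated. The log2 fold change was -0.58 (SE 0.12, edgeR adjusted p = 0.00381) in V338Y mice, and -0.23 (adjusted p = 0.183) in wild-type mice. The difference between these age changes, -0.36, was tested as an interaction and did not pass (unadjusted p = 0.0567, adjusted p = 0.533).

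Polrmt, the mitochondrial RNA polymerase, was at 17.8, 17.2, 17.6 and 17.4 CPM in 3 mo and 18.2, 19.0 and 23.0 in 19 mo wild-type mice, without overlap but with an edgeR adjusted p of 0.167 (log2 fold change 0.20). In V338Y mice it was at 16.2, 13.1, 17.3 and 14.99 at 3 mo, and at 16.1, 18.3, 22.3 and 21.7 at 19 mo, where the old mouse numbered 2 lay within the young range. The log2 fold change was 0.36 with an edgeR adjusted p of 0.0461. The call was lost in 11 of 16 alternatives, with adjusted p of 0.0216 to 0.123 over the 16. RLE size factors, DESeq2 and the fit without the mouse numbered 5 were among the losses. That fit was counted again as the fit without both mice numbered 5, which is the same fit here. Tfb1m was at 4.12 to 7.24 CPM and Twnk at 16.8 to 25.9 CPM over all mice. Their groups overlapped in both genotypes, with log2 fold changes of -0.0049 and -0.13 in the wild type and -0.20 and -0.055 in V338Y mice. Twnk shares 507 exon bases with Mrpl43 and Tfb1m 142 with Tiam2, both on the other strand.

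**Figure D2:**
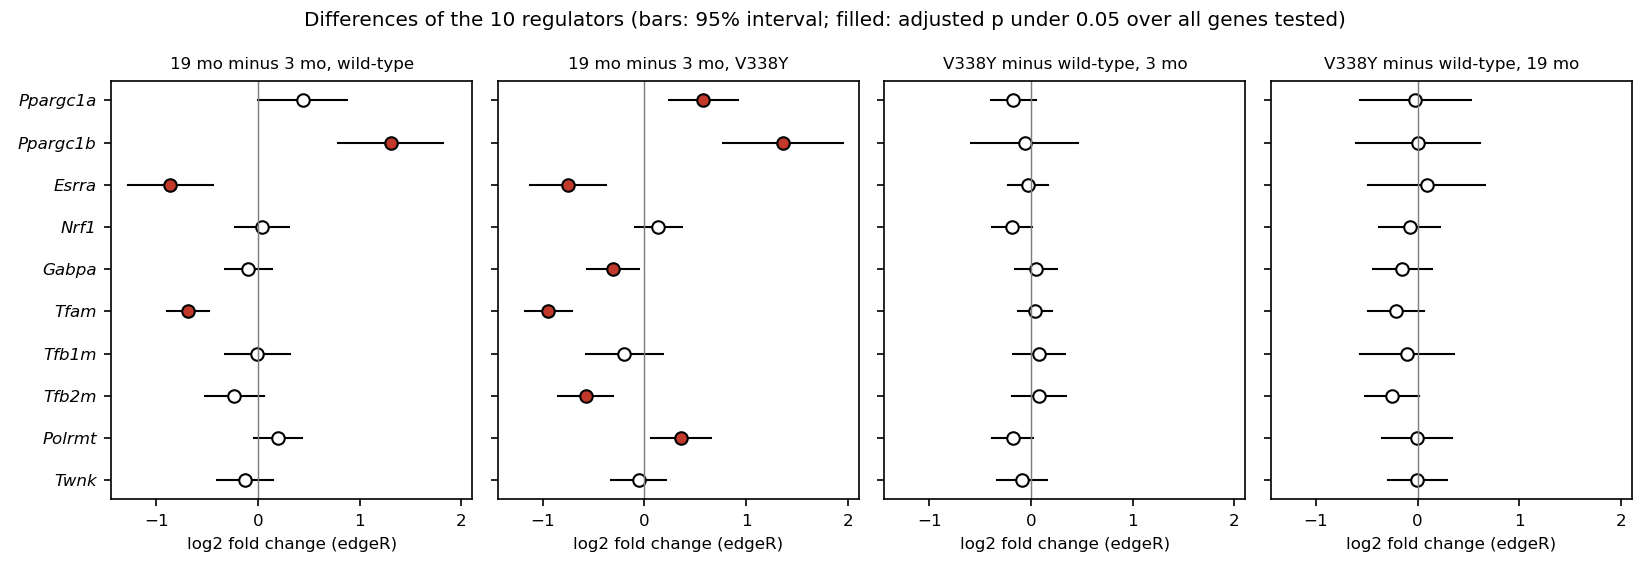
Log2 fold change of each regulator (horizontal axis) from edgeR for age in wild-type, age in V338Y, genotype at 3 mo and genotype at 19 mo, with bars for the 95% interval and filled points for an adjusted p under 0.05. The age panels hold 3 and 7 filled points, and the genotype panels 0.

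No member passed the test between V338Y and wild-type mice at either age. At 3 mo 0 of 10 members were called by edgeR or by DESeq2, and 0 had an unadjusted edgeR p under 0.05, in a comparison that called 0.075% of 13333 genes. No member separated the genotypes, as 4.71% of all genes did. The log2 fold changes (V338Y against wild-type) ran from -0.19 for Nrf1 to 0.081 for Tfb2m. The narrowest 95% interval was that of Tfam, -0.13 to 0.20, and the widest that of Ppargc1b, -0.58 to 0.46, so a change of Ppargc1b of the size seen with age lies outside the interval.

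At 19 mo again 0 members were called by edgeR or DESeq2, with 0 at an unadjusted edgeR p under 0.05 and 0.0434% of 13833 genes called. Tfb2m was the member whose genotypes did not overlap, at 12.0 to 14.6 CPM in wild-type and 10.2 to 11.9 in V338Y mice, as for 9.79% of all genes. Its log2 fold change was -0.25 (95% interval -0.51 to 0.016, edgeR adjusted p = 0.565). Ppargc1a differed by -0.020 (-0.57 to 0.53), Esrra by 0.091 (-0.48 to 0.67) and Tfam by -0.21 (-0.48 to 0.066). Without the mice numbered 5 the values were 0.15 (-0.20 to 0.49) for Ppargc1a, 0.15 (-0.16 to 0.47) for Esrra and -0.32 (-0.64 to -0.0014) for Tfam. This interval of Tfam excludes 0, but it did not pass over all genes (edgeR adjusted p = 0.649). The intervals of Ppargc1a and Esrra were wider than at 3 mo, with a mouse numbered 5 in each group. A fit with a replicate block by mouse number passed 110 genes in place of 6, and again 0 members.

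The test of whether age acted differently in V338Y than in wild-type mice called 0 genes in edgeR (1361 of 14128 at an unadjusted p under 0.05, and 26 in DESeq2), a background of 0%. Among members 0 passed in either tool, and 0 had an unadjusted edgeR p under 0.05. The smallest p in edgeR were those of Tfb2m, given above, and of Tfam (unadjusted p = 0.0595, adjusted p = 0.536, log2 difference -0.27). Without the mice numbered 5 the difference of Tfam was -0.36 (95% interval -0.65 to -0.062, edgeR adjusted p = 0.41), and those of Ppargc1a and Esrra were 0.32 and 0.19 in place of 0.13 and 0.10. Calls that were made in V338Y but not in wild-type mice, Ppargc1a, Gabpa, Tfb2m and Polrmt, are therefore not shown to differ between the genotypes.

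Other genes of the pathway were read from lists of other genes than the members, beside 18.3% higher and 17.8% lower with age among all genes in wild-type, and 24.4% and 22.5% in V338Y mice. Of 23 further coactivators and DNA-binding factors, 6 were higher and 0 lower with age in wild-type mice, and 9 higher and 2 lower in V338Y mice. Pprc1, the third member of the PGC-1 family, was at 7.44 to 9.30 CPM in 3 mo and 15.4 to 23.4 in 19 mo wild-type mice (edgeR log2 fold change 1.19, adjusted p = 0.000789). Its change in V338Y mice was 1.46 (adjusted p = 0.000256). Mef2d, a muscle factor that acts on the Ppargc1a promoter, was higher by 1.19 and 1.03, and Hcfc1, a cofactor of GABP and PGC-1 proteins, by 0.96 and 1.03 on the log2 scale in wild-type and V338Y mice. For these 3 genes all 19 mo mice were above all 3 mo mice.

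All 25 tested genes of mitochondrial transcription and RNA handling had a negative age change in both genotypes. Over all genes tested, 48.6% were negative in wild-type and 45.9% in V338Y mice. Of them 15 passed the test in wild-type and 16 in V338Y mice, 0 were higher, and the medians were -0.35 and -0.37. Tefm, the elongation factor of POLRMT, was at 12.7 to 14.2 CPM in 3 mo and 5.96 to 8.89 in 19 mo wild-type mice (edgeR log2 fold change -0.77, adjusted p = 0.00421), and changed by -0.83 (adjusted p = 0.0025) in V338Y mice. Ptcd2, an RNA-processing protein, changed by -0.73 and -0.59.

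Of 19 tested genes of mtDNA replication and nucleotide supply, 6 were lower and 1 higher in wild-type mice, and 7 lower and 2 higher in V338Y mice. Ssbp1, the single-strand binding protein of mtDNA, was the lowest in p in both, at 17.4 to 20.1 CPM in 3 mo and 9.51 to 13.3 in 19 mo wild-type mice. Its log2 fold change was -0.70 (edgeR adjusted p = 0.00322) in wild-type and -0.90 (adjusted p = 0.000199) in V338Y mice. Slc25a36, a pyrimidine nucleotide carrier, was higher, by 0.34 and 0.37.

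Of 20 textbook targets of PGC-1 proteins and ERRα, 12 were lower in wild-type and 10 in V338Y mice, 0 were higher, and the medians were -0.51 and -0.57. Cycs, cytochrome c, was at 204 to 230 CPM in 3 mo and 95.3 to 107 in 19 mo wild-type mice (edgeR log2 fold change -1.09, adjusted p = 9.65e-05), and changed by -1.10 in V338Y mice. Cox5b and Cox4i1, subunits of cytochrome c oxidase, changed by -0.91 and -0.77 in wild-type mice. Of 23 kinases, deacetylases and acetyltransferases upstream of PGC-1α, 4 were higher and 5 lower in wild-type (17.4% and 21.7%), and 5 higher and 4 lower in V338Y mice (21.7% and 17.4%), which is near the share over all genes. Camk2b, a calcium-dependent kinase, was higher by 1.32 and 0.77, and Sirt3, the mitochondrial deacetylase, was lower (log2 fold change -0.77 in wild-type and -0.76 in V338Y mice). By genotype 0 genes of any of these lists were called at either age.

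**Figure D3:**
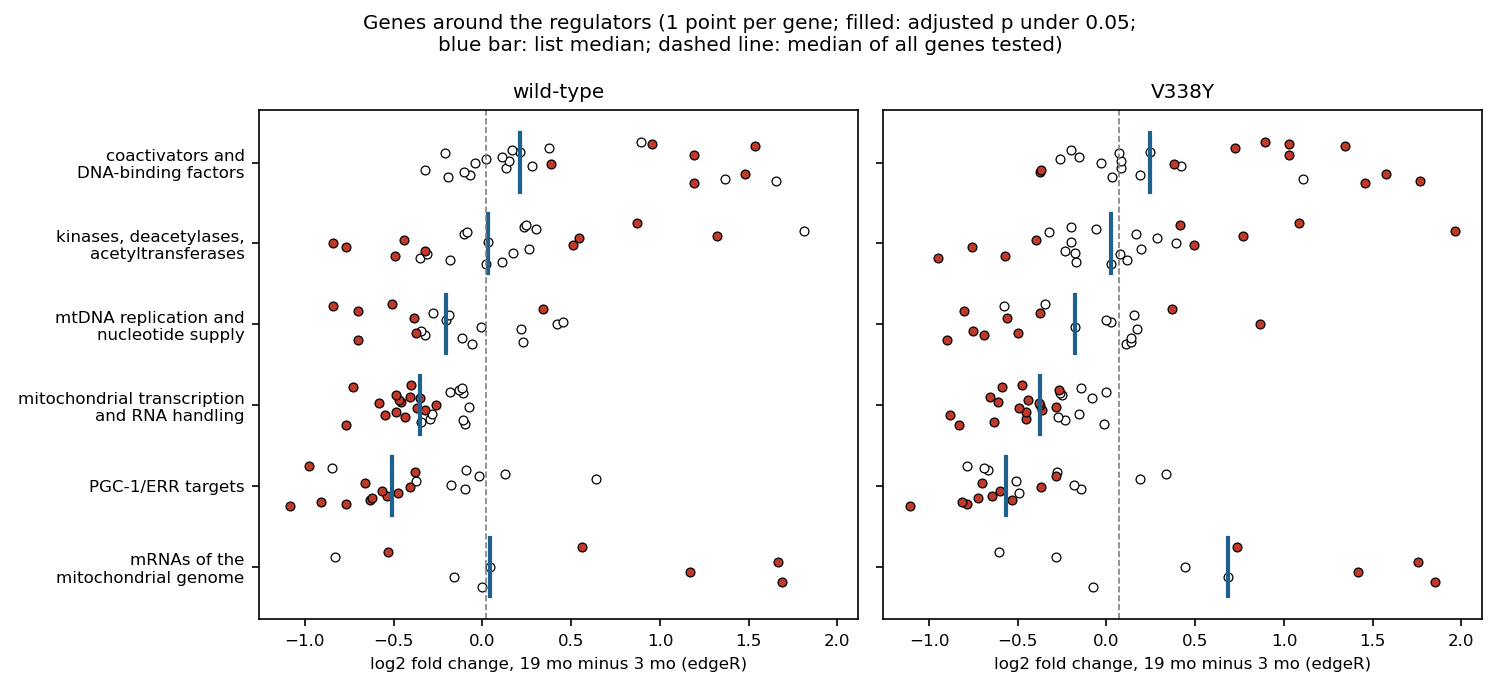
Log2 fold change with age (horizontal axis) of the genes in 6 lists around the regulators, in wild-type and V338Y mice, 1 point per gene. Filled points have an adjusted p under 0.05, blue bars are list medians, and the dashed line is the median of all genes tested (0.019 and 0.072). Genes of mitochondrial transcription and RNA handling lie below 0 in both panels.

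The transcripts that POLRMT, TFAM and TFB2M make were read from 13 mRNAs of the mitochondrial genome. Their summed level was 22970 ± 729 CPM (SD, n = 4) in 3 mo and 21371 ± 4995 (n = 3) in 19 mo wild-type mice, and 23770 ± 462 (n = 4) and 21335 ± 7861 (n = 4) in V338Y mice. Old mice were spread widely. The mice numbered 5 had the highest sums, 27039 and 30572 CPM, and the V338Y mouse numbered 4 the lowest, 11609. The log2 difference with age was -0.13 in the wild type and -0.24 in the mutant (exact two-sided permutation p = 0.457 and 0.629, both 0.838 adjusted over 4 comparisons). Without the mice numbered 5 it was -0.31 and -0.44 (both with an adjusted exact permutation p of 0.178). With 4 against 2 wild-type and 4 against 3 V338Y mice the test cannot reach 0.05, so it decides nothing here. The 19 mo wild-type mice numbered 2 and 4, at 19461 and 17613 CPM, lay below all 3 mo wild-type mice (lowest 21904). By genotype it was 0.050 at 3 mo (exact p = 0.114, adjusted 0.457) and -0.061 at 19 mo (exact p = 0.971). The smallest p that an exact permutation test can reach is 0.0286 with 4 against 4 mice and 0.0571 with 3 against 4.

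Within this sum single transcripts moved apart. mt-Nd2, a subunit of complex I, was at 339 to 531 CPM in 3 mo and 1104 to 1879 in 19 mo wild-type mice (edgeR log2 fold change 1.69, adjusted p = 0.000542), and mt-Nd4 and mt-Nd5 rose by 1.17 and 1.66. In V338Y mice these changes were 1.85, 1.42 and 1.75, all with an adjusted p under 0.05. mt-Cytb rose by 0.56 in wild-type mice (edgeR adjusted p = 0.0347). In each genotype 4 of the 9 tested mRNAs were higher. mt-Co1, the most abundant, had a mean of 16271 CPM in 3 mo wild-type mice, which is most of the sum of 22970 there. It changed by -0.53 (adjusted p = 0.0379) in wild-type mice. In V338Y mice its value was -0.60, which did not pass (adjusted p = 0.103). Of the 13, only 9 had enough counts to be tested, and mt-Co2, mt-Co3, mt-Atp6 and mt-Atp8 were at 0 to 0.576 CPM, far below other transcripts of the same genome, so the sum does not cover all of it. All genes of the mitochondrial genome together held 7.11% to 14.4% of the counts of a mouse, more than this sum.

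Among 19 mo mice the highest Ppargc1a and Esrra of each genotype were those of the mice numbered 5, which bears on the spread. These mice were also the highest of each old group for Ppargc1b, Gabpa and Twnk. The coefficient of variation of Ppargc1a was 9.43% in 3 mo and 34.5% in 19 mo wild-type mice, and that of Esrra 12.3% and 30.4%, and in V338Y mice they were 11.1% and 22.3%, and 3.73% and 29.0%. Without the mice numbered 5 the values at 19 mo were 9.82% for Ppargc1a and 4.80% for Esrra in wild-type mice (n = 2). In V338Y mice they were 13.7% and 10.1% (n = 3). The mice left out held the highest values of their groups, so a smaller spread without them was built in. It does not show how the spread of old mice compares with that at 3 mo. In the mice numbered 5 other receptors of the ERR family and Perm1, a muscle gene that PGC-1 and ERR induce, were high as well (chosen after their values were seen). Esrrb was at 9.43 and 13.1 CPM there and at 1.003 to 4.01 in the other mice, Esrrg at 31.5 and 35.6 against 4.01 to 10.7, and Perm1 at 181 and 187 against 45.9 to 128.

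**Figure D4:**
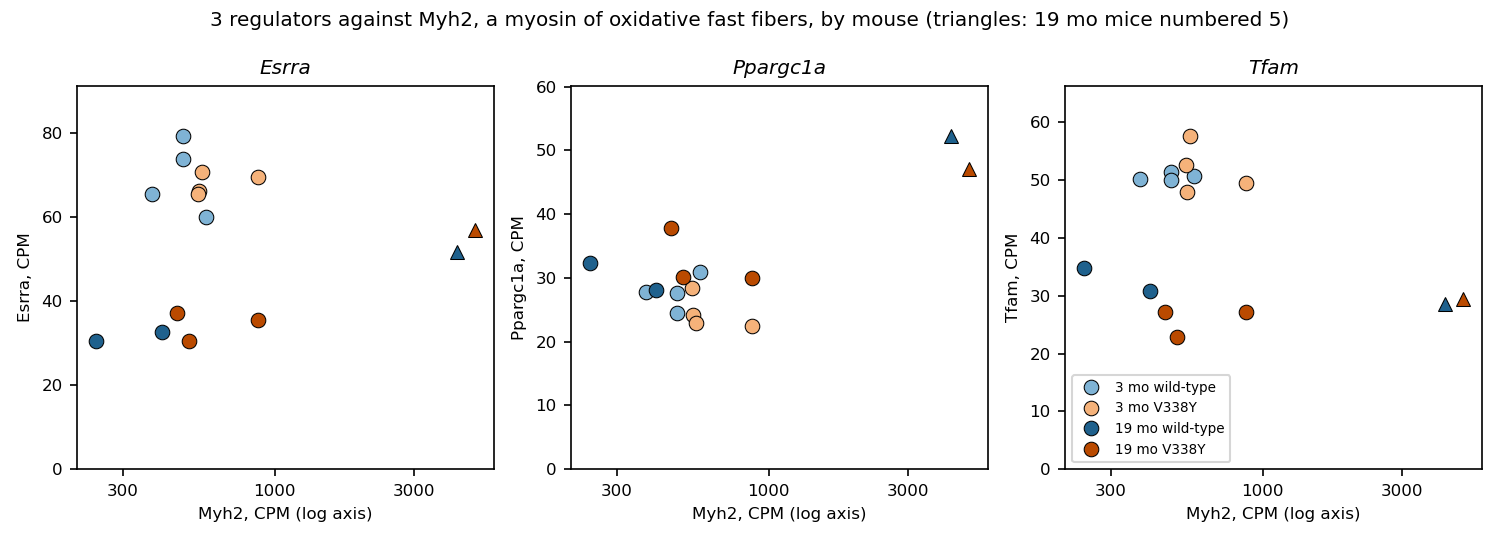
Esrra, Ppargc1a and Tfam (CPM, vertical axes from 0) against Myh2 (CPM, log axis) in each mouse, coloured by group, with triangles for the 19 mo mice numbered 5. The triangles lie at Myh2 of 4246 and 4880 CPM and have the highest Esrra and Ppargc1a of the old mice, but Esrra below all young mice.

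As a description, deviations of log2 CPM from the group means (pseudocount 0.5) were correlated over the 15 mice. The values include the pair of mice numbered 5, all genes of a mouse share 1 library, and no test was made. Ppargc1a and Esrra deviated together (Pearson r = 0.72), but at r = -0.23 over the 13 mice without the pair. Tfam and Tfb2m had r = 0.66 and 0.70 without the pair. Of 14127 other genes the most like Esrra were Esrrb, of the same receptor family (r = 0.96, and 0.73 without the pair), Mpc1, of the mitochondrial pyruvate carrier (0.95 and 0.84), Ptpn3, Acadvl, an enzyme of fatty acid oxidation, and Dnaja4. The most like Ppargc1a were Patl1 (r = 0.91, and 0.91 without the pair), Slmap, Igkv10-96, Qk and Sh3glb1. With the pair left out 0 of these 5 stayed among the leading 5 for either member.

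Markers of other cells moved with age as well, and less of a transcript per cell cannot be told apart from fewer cells in whole muscle. The summed level of 8 slow fiber genes was 64.7 to 204 CPM in 3 mo mice, 90.3 to 891 in 19 mo wild-type and 76.9 to 2958 in 19 mo V338Y mice. The highest sums, 891 and 2958 CPM, were those of the mice numbered 5. With age all 8 genes had a positive log2 fold change in both genotypes, with medians of 3.596 in wild-type and 2.56 in V338Y mice. Of the 8 slow fiber genes, 8 passed the test in wild-type and 0 in V338Y mice. Of 5 endothelial genes 3 and 4 were higher with age, with sums of 152 to 197 CPM at 3 mo and 239 to 379 at 19 mo. Of 7 macrophage genes 4 were higher in each genotype, with sums of 193 to 358 CPM at 3 mo and 292 to 418 at 19 mo. Of 8 muscle fiber genes 2 were lower with age in wild-type and 3 in V338Y mice, and 0 were higher. Of 5 fibroblast genes 3 were lower in each genotype, and 1 was higher in wild-type mice. Their sums were 1147 to 1831 CPM at 3 mo and 752 to 1654 at 19 mo. Among all genes 18.3% were higher and 17.8% lower with age in wild-type mice, and 24.4% were higher and 22.5% lower in V338Y mice. Of 7 adipocyte genes 2 were lower in wild-type and 2 higher in V338Y mice, with sums of 216 to 1518 CPM over all mice. Brown fat genes, 4 in number, summed to 432 CPM in the 3 mo wild-type mouse numbered 1, where Ppargc1a was within the range of its group, and to 1.93 to 12.2 CPM in 19 mo mice. Neutrophil genes, 7 in number, summed to 567 CPM in the 19 mo V338Y mouse numbered 5 and to at most 4.55 in wild-type mice. The part of these cells in the age differences was not tested.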

How the data were processed

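RNA of quadriceps muscle was sequenced as 1 library per mouse. The authors assigned reads to genes of an Ensembl annotation with RSEM and deposited an estimated count per gene, given as whole numbers and not scaled for depth or gene length. The submitters' processing notes also list STAR 2.4.2a. The methods text and the labels name different mouse builds, and positions here are from GENCODE M21 on GRCm38. RSEM divides reads that match several genes between them.

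Groups were taken from the labels. Following the study's methods, a gene entered a comparison when 50% or more of the mice of either group had 10 or more counts. TMM normalization and the quasi-likelihood test of edgeR 4.0.16 (glmQLFit and glmQLFTest, R 4.3.3) were applied to each pair of groups, and to all 15 mice for the interaction. Benjamini-Hochberg adjustment ran over all genes tested, with a threshold of 0.05. Mice are separate animals, and totals of 8250653 to 18968132 counts leave 29 to 1152 counts per member. Per-length levels use the union of annotated exons. The code was tested on simulated data. Alternatives were RLE size factors, DESeq2 1.42.0, nuclear genes only, no filter, filterByExpr, a fit of all mice, a replicate block, and each mouse left out. A fit without both 19 mo mice numbered 5 was added after seeing the data. In a comparison by age it is the same as leaving out the single mouse numbered 5, yet it was counted as a further alternative.

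Same-numbered mice of different genotype at 19 mo deviated together, with correlations of 0.13, 0.24 and 0.40 over genes, against -0.41 to 0.47 for mice of different number (highest for wild-type 2 with V338Y 3), and were treated as pairs in the block. At 3 mo the correlations of same-numbered mice of different genotype were -0.16 to 0.14, with a mean of -0.044. Between ages they were 0.0048 to 0.016 in wild-type and -0.14 to 0.015 in V338Y mice. Labels do not say what the numbers mean.

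The members and gene lists were chosen with earlier results of these data known. Text names all members and the 5 genes most like Ppargc1a and Esrra. Of each list it names genes from the 4 with the smallest p among those called per comparison. Further genes, mt-Co1, Esrrb, Esrrg and Perm1 among them, are named beyond this rule. Of the 39179 genes, 37607 were matched to a symbol. Other samples of the series and the metabolome were not analysed here.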

Additional observations from a re-analysis of the deposited data

How the results depend on the processing

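The calls of Ppargc1b, Esrra and Tfam with age in both genotypes, and of Ppargc1a and Tfb2m in V338Y mice, kept direction and threshold in each of the alternatives run (15 in wild-type, 16 in V338Y mice). Of 830 member values under an alternative, 754 kept sign and side of the threshold, 20 lost the call (Gabpa 9 and Polrmt 11 times, in V338Y mice), 1 gained it, and 55 changed sign, 0 of them called. With age, the fit without the mouse numbered 5 enters these counts again as the fit without both mice numbered 5. The gain was Ppargc1a in wild-type mice without the 19 mo mouse numbered 4 (0.60, edgeR adjusted p = 0.0488). Counts of all genes called moved more. With age in wild-type mice a replicate block gave 2229 in place of 4940. By genotype at 3 mo DESeq2 gave 66 and no filter 33 in place of 10, and leaving out a mouse 3 to 14. By genotype at 19 mo DESeq2 gave 62, no filter 14 and the replicate block 110 in place of 6, and leaving out a mouse 2 to 7. For the interaction DESeq2 gave 26, no filter 5 and the replicate block 28 in place of 0. The block changed no other call of a member than Polrmt in V338Y mice (0.32, edgeR adjusted p = 0.109). Whether mice of the same number share more than the number is not known in any comparison. In an age comparison the block draws only on mice whose number occurs at both ages. These are numbers 2 and 4 in wild-type and 2, 3 and 4 in V338Y mice, so it rests on fewer mice than the main fit. The cause of these moves in gene counts was not tested.

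The values that changed sign were at most 0.30 in size. With age in wild-type mice Tfb1m was at 0.00079 with filterByExpr, 0.068 with the block and 0.073 without the mice numbered 5, and Nrf1 at -0.013 and -0.017 in the latter fits. By genotype at 19 mo Ppargc1b was at -0.0012 with RLE size factors, -0.0056 with DESeq2, -0.022 with no filter, -0.016 in the fit of all mice and -0.066 with the block. Polrmt was at 0.027 and Twnk at 0.0029 with the block, and without the mice numbered 5 Ppargc1a was at 0.15 and Polrmt at 0.055. Leaving out a mouse gave these ranges. With age they were -0.032 to 0.14 for Nrf1 and -0.059 to 0.073 for Tfb1m in wild-type, and -0.13 to 0.015 for Twnk in V338Y mice. By genotype at 3 mo they were -0.24 to 0.11 for Ppargc1b, -0.096 to 0.038 for Esrra, -0.018 to 0.11 for Gabpa and -0.013 to 0.078 for Tfam. At 19 mo they were -0.19 to 0.30 for Ppargc1a, -0.17 to 0.22 for Ppargc1b, -0.12 to 0.37 for Esrra, -0.25 to 0.0068 for Tfb1m, -0.076 to 0.11 for Polrmt and -0.081 to 0.065 for Twnk. For the interaction they were -0.038 to 0.45 for Ppargc1a, -0.12 to 0.26 for Ppargc1b, -0.091 to 0.38 for Esrra, -0.014 to 0.15 for Nrf1 and -0.023 to 0.15 for Twnk. The summed mitochondrial mRNA level ranged from -0.31 (without the 19 mo mouse numbered 5) to -0.0014 (without the 19 mo mouse numbered 4) with age in wild-type mice, from -0.44 to 0.025 with age in V338Y mice, where leaving out the 19 mo mouse numbered 4 changed the sign, and from -0.26 to 0.20 by genotype at 19 mo. At 3 mo Ppargc1b had the fewest counts of the members, 29 to 92 per mouse. Sex, sampling time and age cannot be told apart.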
